A study of Mus musculus with 8 samples.

Results

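The mitosis genes described here were the 49 genes of a list of spindle, kinetochore, checkpoint, condensin and cytokinesis components, chosen by symbol and matched to the table through Ensembl identifiers. All 49 were found among the 13378 genes of the table, with 3 to 45 exon junctions each. RNA was sequenced from FT1CL, a mouse acute myeloid leukemia line grown in medium with 10% serum and interleukin-3 at 5 ng/mL. It was made from bone marrow of an 8-week-old mouse with conditional Cop1 alleles and Rosa26-Cre-ERT2, taken 5 days after 5-fluorouracil at 150 mg/kg and transduced with a retrovirus that carries Trib1. Both groups therefore share the Trib1 retrovirus and come from 1 line. The 4 wild-type libraries are labelled Cop1 +/+ with no treatment. The 4 knockout libraries are labelled Cop1 ko/ko and came from cells given 4-hydroxytamoxifen, which activates the Cre recombinase. The drug and the loss of Cop1 went together in every library and cannot be told apart. Whether the libraries within a group were grown as separate cultures is not in the labels, and the spread behind every p-value here may be technical.

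At entry into mitosis, the kinase CDK1 with its A and B cyclins starts a programme in which condensin compacts the chromosomes and kinesins build the bipolar spindle. Kinetochores, protein assemblies on the centromeres, bind spindle microtubules, and the spindle checkpoint holds back the anaphase-promoting complex until every kinetochore is attached. CDC20 then activates that complex, separase cuts cohesin, and the central spindle and a contractile ring divide the cell. Transcripts of these genes rise together late in the cell cycle, through the DREAM and MuvB complexes, MYBL2 and FOXM1, which act at a promoter element called the cell cycle homology region and beside NF-Y bound at CCAAT boxes. In a culture their RNA therefore also tracks how many cells are dividing. COP1 is a ubiquitin ligase that works with TRIB1 to mark C/EBPα, a factor of granulocyte differentiation, for degradation.

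Each value is the number of reads that cross a gene's exon junctions, per 1000000 junction reads of the library (RPM). Depth was 17811247 to 20981993 junction reads in the wild-type libraries and 17333302 to 22469109 in the knockout libraries. Summed over junctions, RPM grows with the number of introns, so levels are compared between groups and not between genes. The targeted gene was checked first: Cop1 (ENSMUSG00000040782, chromosome 1, 159232320 to 159347640) gave 159, 162, 166 and 162 RPM in wild-type libraries 1 to 4 and 81.3, 70.3, 76.5 and 66.7 RPM in knockout libraries 1 to 4. Every knockout library was below every wild-type library, at 45.4% of the wild-type mean (log2 fold change -1.13, SE 0.08, adjusted p = 4.91e-04). Fold changes are knockout minus wild type on the log2(RPM + 1) scale, and adjusted p-values come from limma adjusted by Benjamini-Hochberg across all 11003 tested genes, with a threshold of 0.05. Both libraries numbered 4 stood apart from the rest of their group, and calls that change without them are given both ways. Some junctions held at most 6 reads in a library where the rest of the gene predicted at least 100. Such a dropped value occurred 222 times in 65 of the 884 junctions of the mitosis genes and touched 19 of the 49 genes. For those genes values are also given without the affected junctions.

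Mitosis genes were lower in the knockout cells as a group, by a modest amount. Of the 49 genes, all of which passed the filter of 1 RPM on average, 19 fell and none rose (38.8% lower). Over all genes tested, 12.1% fell and 8.49% rose. The median log2 fold change of the 49 genes was -0.28, against -0.07 over all genes tested, and 45 of the 49 values were negative, against 56.6% of all genes. Falls among the 19 genes ran from 0.28 (Kif20b) to 0.81 (Ccna2) on the log2 scale. Without the affected junctions Ccna2 had a log2 fold change of -0.41, and the largest fall among the 19 was that of Ncapd2 (-0.64). In 23 of the 49 genes every knockout library lay below every wild-type library (15.4% of all genes did), and in none did every knockout library lie above (9.79% of all genes did). Without the junctions that have a dropped value, 23 genes fell (16.5% of all genes), 18 of them also among the 19, the median was -0.29, 48 of 49 values were negative (57.2% of all genes), and 32 genes had groups that did not overlap (18.2% of all genes). The exception in sign was Cdc25b, at 0.09 (adjusted p = 0.782).

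The number of calls rests on the scaling and on single libraries more than the direction does. Scaling by trimmed means of M-values (TMM) moved the share of calls that were rises from 41.3% to 52.9% of all calls. It left 6 of the mitosis genes lower (12.2%, near the 8.83% of all genes) and none higher (9.92% of all genes). The 6 were Ccna2, Bub1b, Kif15, Ncapd2, Top2a and Espl1. The same 6 genes kept their call in each of the 8 fits that left out 1 library, while the count ran from 6, without wild-type library 1 or without knockout library 3, to 16, without knockout library 1. Leaving out wild-type library 2 gave 8, leaving out wild-type library 3 or knockout library 2 gave 10, and the most-read junction of each gene taken alone gave 11. As shares of the 49 genes, the counts without 1 library ran from 12.2% to 32.7%. The count of all genes lower also moved between the fits that left out 1 library, over the range given in the last section. The all-gene share of each such fit, and of the most-read junction, is not set beside these counts. They therefore do not show by themselves an excess over all genes. TMM without the affected junctions, a run added after seeing the data, left 14 mitosis genes lower (28.6%, against 12.5% of all genes), 12 of them among the 19. Without both libraries numbered 4, 14 genes were lower (14.1% of all genes), 12 of them among the 19. The 7 calls lost there were Ccnb2 (adjusted p = 0.0542), Plk1 (0.0603), Bub3 (0.073), Ttk (0.0564), Nuf2 (0.112), Kif18a (0.0927) and Smc2 (0.118), and Ccnb1 (0.014) and Incenp (0.0463) were called there and not over all 8 libraries. The fit as reported has no replicate block, although same-numbered libraries correlated across the groups. With the replicate number as a block, 19 genes were lower (15.7% of all genes), 16 of them among the 19 above. The block without the affected junctions gave 34 genes lower (21.8% of all genes). None rose in any of these fits.

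**Figure D1:**
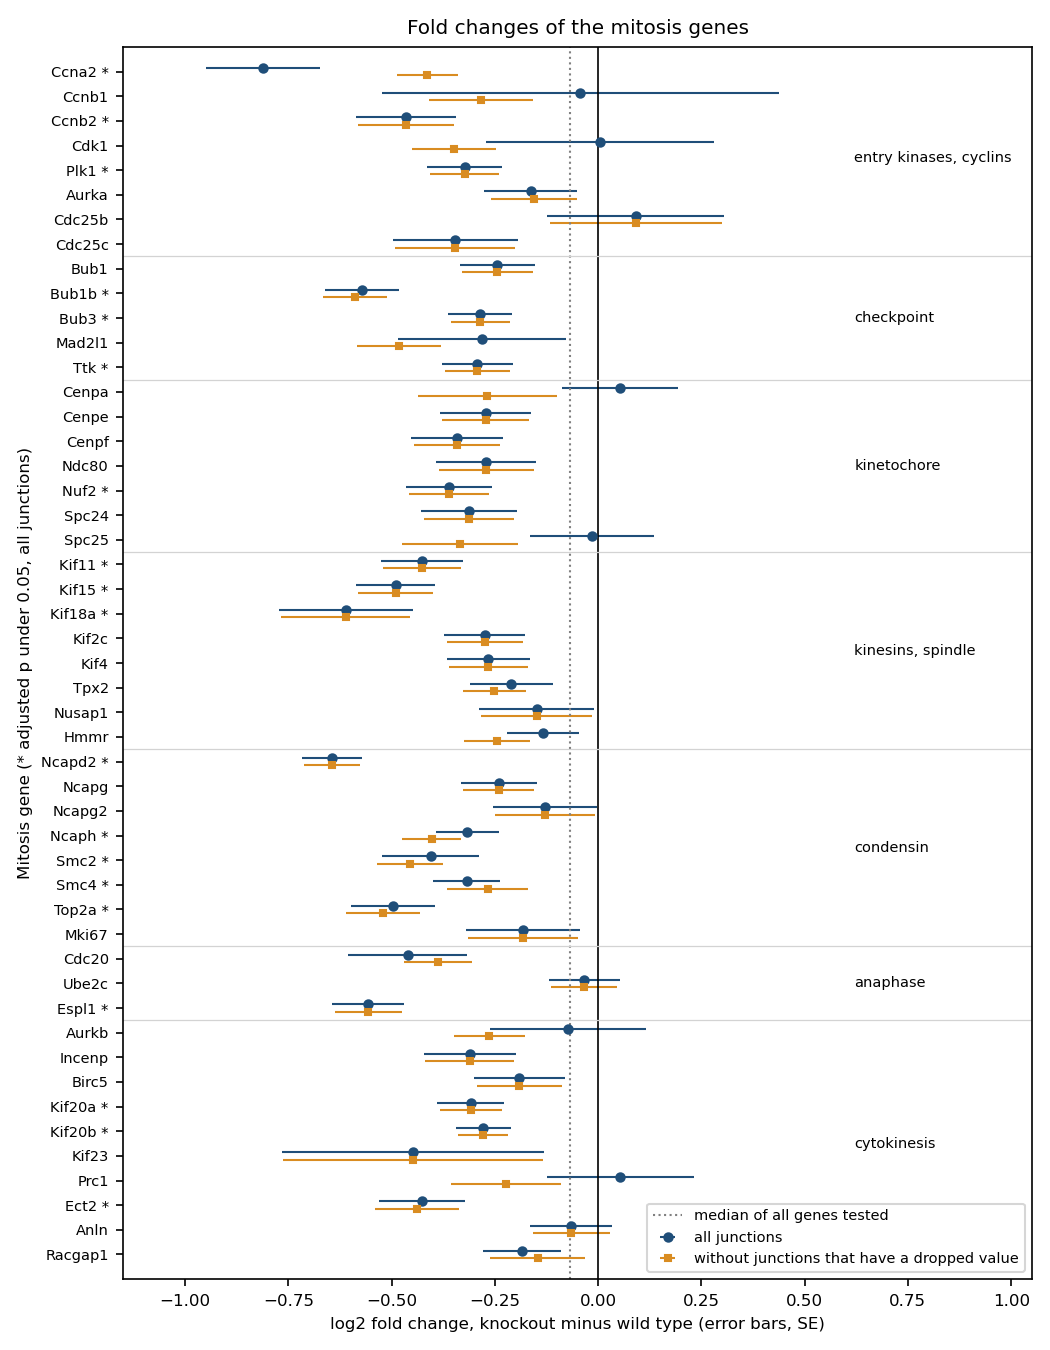
Log2 fold change, knockout minus wild type, of each of the 49 mitosis genes with its standard error, from all junctions (circles) and without junctions that have a dropped value (squares). The dotted line is the median of all genes tested, -0.07, and asterisks mark the 19 genes with an adjusted p under 0.05, which all lie left of it.

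Summed over the 49 genes without the affected junctions, the RNA level was 8241, 7893, 7554 and 7173 RPM in wild-type libraries 1 to 4 and 6568, 6205, 5719 and 5390.5 RPM in knockout libraries 1 to 4. The groups did not overlap, and the knockout mean of 5971 ± 520 RPM was 77.4% of the wild-type mean of 7715 ± 458 RPM (SD, n = 4). In both groups library 1 was highest and library 4 lowest. The median gene lay 0.18, 0.23, 0.42 and 0.43 below its wild-type mean (log2) in knockout libraries 1 to 4, where the median of all genes lay 0.09, 0.09, 0.09 and 0.04 below. Knockout library 4 was the lowest knockout library for 29 of the 49 genes and the highest for 3, and wild-type library 4 was the lowest wild-type library for 27. From bulk RNA, fewer dividing cells and less mitotic RNA per dividing cell cannot be told apart.

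**Figure D2:**
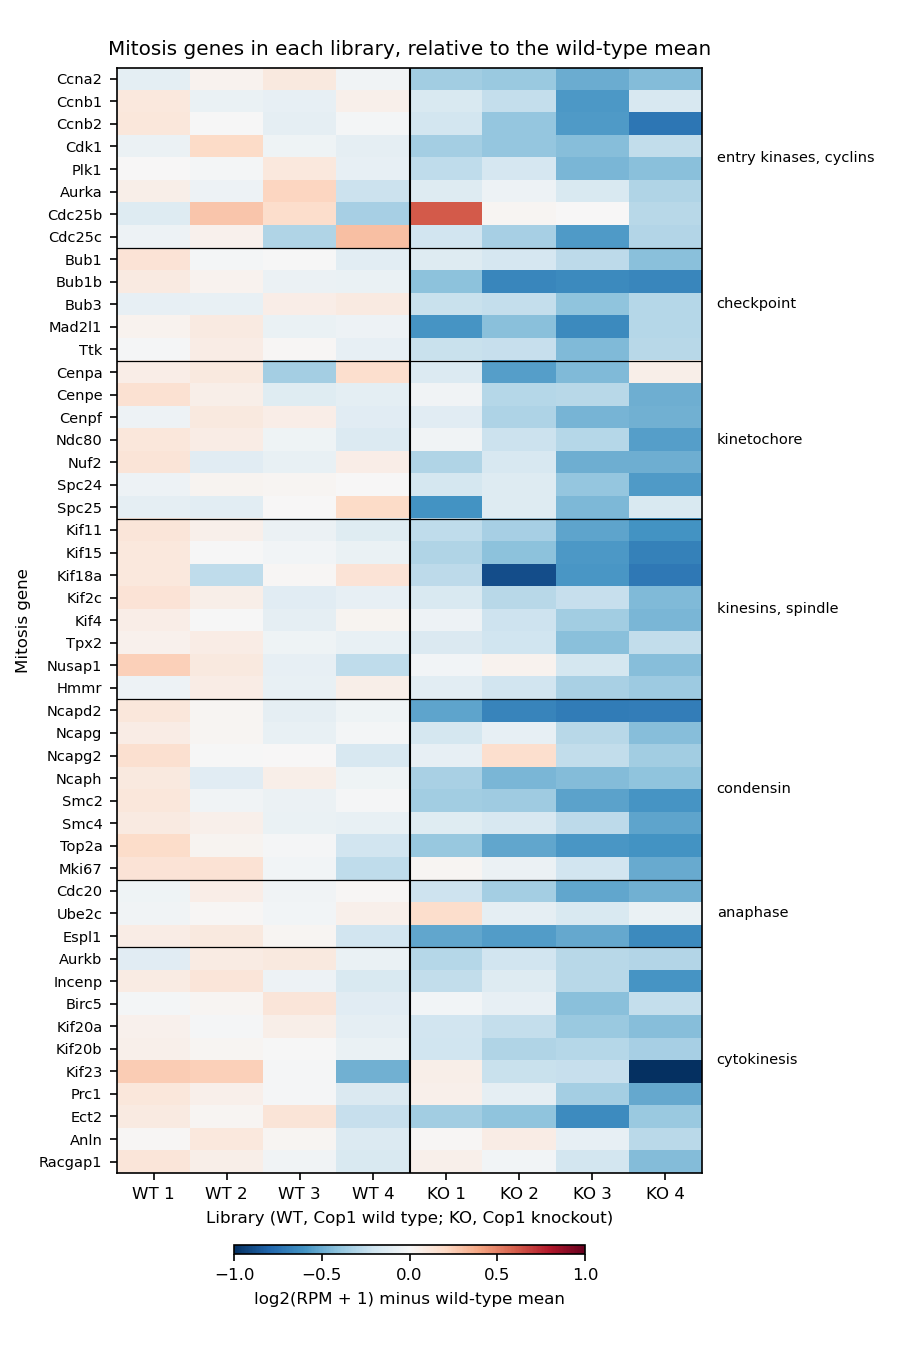
Each row is a mitosis gene and each column a library, with the colour giving log2(RPM + 1) minus the mean of the 4 wild-type libraries, without junctions that have a dropped value. The knockout columns are mostly blue, with Ncapd2, Bub1b and Espl1 blue in all 4 and Kif23 darkest in knockout library 4.

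Some marker genes of other cell types moved between the same libraries. Their RPM levels, sums and medians leave out junctions that have a dropped value, while their fold changes and adjusted p-values are from all junctions. The 15 neutrophil markers summed to 12.7 to 52.9 RPM in wild type and to 4975, 10425, 4445 and 365 RPM in knockout libraries 1 to 4, with Retnlg and Fpr1 at 0 in every wild-type library. Knockout library 4 thus had the lowest neutrophil level of its group together with the lowest mitosis level, and in wild type library 4 was lowest in both as well. Most of the knockout sum came from Ltf, Ngp, Mmp8 and Lcn2, which rose (log2 fold change 7.44, 7.73, 6.19 and 5.75, adjusted p at most 0.0071). Ly6g, Cxcr2, S100a8 and S100a9 rose as well. Camp, Mmp9, Cd177, Itgb2l, Chil3 and Retnlg had no call, and Fpr1 was under the filter of 1 RPM. Of 10 monocyte and macrophage markers 9 were in the table, at 487 to 992 RPM in wild type, and 729 to 2403 RPM in the knockout libraries. Among them Ly6c2 and Cd14 rose (log2 fold change 4.34 and 3.11, adjusted p = 0.0172 and 0.00551), and the rest had no call. The 10 mast cell and basophil markers summed to 12322 to 14321 RPM in wild type, and 12428 to 17593 RPM in the knockout libraries, a sum carried by Cpa3, which had no call (log2 fold change -0.09, adjusted p = 0.692). Of these 10, 5 rose: Prss34 by 4.79 on the log2 scale, Mcpt8 by 2.89, Tpsb2 by 2.11, Cma1 by 1.63 and Ms4a2 by 0.96. The median of the 10 lay 0.88 to 1.23 above the wild-type mean (log2) in the knockout libraries, and between -0.25 and 0.38 in the wild-type libraries. Erythroid markers (8 of 10 in the table) summed to 299 to 607 RPM in wild type, and 72.1 to 448 RPM in the knockout libraries, and megakaryocyte markers (6 of 8) to 425 to 755 RPM and 438 to 794 RPM. Hba-a1 and Hba-a2 fell (log2 fold change -2.61 and -2.51, adjusted p = 0.00127 and 0.00095). Vwf rose (1.71, adjusted p = 0.00748), and the other erythroid and megakaryocyte markers had no call. T and NK cell markers (6 of 10) summed to 85.4 to 153 RPM and 29.997 to 83.1 RPM, and Lck among them fell (log2 fold change -2.87, adjusted p = 0.00698). B cell markers (4 of 8) summed to 8.2 to 53.7 RPM and 3.92 to 26.6 RPM. The fibroblast and stroma markers (3 of 8) summed to 150 to 198 RPM and 20.8 to 64.0 RPM, nearly all of it Pdgfrb, which fell (log2 fold change -1.91, adjusted p = 0.00566). Markers without a row, among them Cd3e, Alas2 and Pdgfra, were not analysed here. Whether the marker RNA came from other cell types or from the leukemia line itself was not tested, and neither was its part in the lower mitosis RNA.

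**Figure D3:**
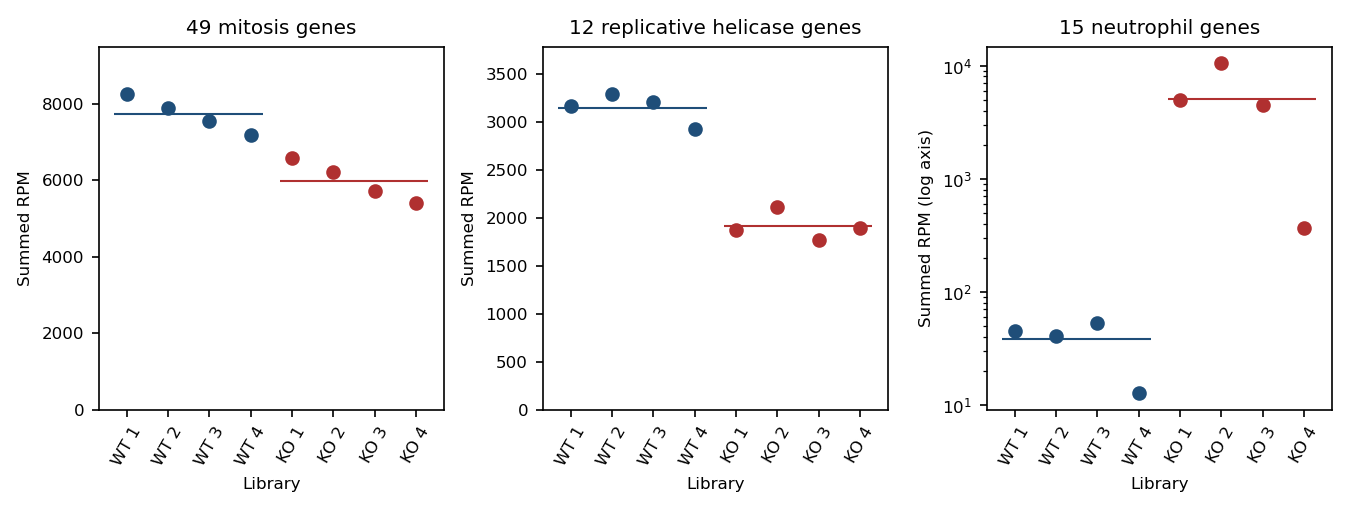
Summed RPM per library of the 49 mitosis genes, of 12 replicative helicase genes and of 15 neutrophil markers (the last on a log axis), without junctions that have a dropped value, with a line at each group mean. In the first 2 panels every knockout point is below every wild-type point, and in the third every knockout point is above, with knockout library 4 at 365 RPM.

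The mitosis promoters carried the letters of the cell cycle homology region more often than other promoters did. RefSeq promoter windows (build GRCm38.p6, 250 bases before to 50 after the gene start) were matched for 41 of the 49 genes. For Kif2c and Kif4 the whole window lies past the start in the gene annotation, inside the gene, and both are counted here. The motif TTTGAA or TTTAAA, on either strand, was in 34 of the 41 (82.9%), against 19.1% of the 8645 tested genes with a window and 27.8% of all 27025 windows. CCAAT, on either strand, was in 29 (70.7%), against 39.3% and 37.9%, and both motifs were in 27 (65.9%), against 7.98% and 10.9%. CCAAT occurred at 2 or more places in 18 of the 41 (43.9%), against 15.7% of tested genes. The shares did not separate the genes that fell from the rest: of 16 matched genes that fell, 13 held the first motif (81.2%) and 11 held CCAAT (68.8%), and of 25 without a call 21 (84%) and 18 (72%) did. Kif18a, Mad2l1, Ncaph, Nuf2 and Nusap1 held neither, which says only that these letters are not in this window.

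To show these elements beside the expression data, the upstream stretch is printed for the 5 genes with a window whose call held under TMM scaling and in every fit that left out 1 library, and for Ube2c, which had no call. Each runs 5′ to 3′ on the gene's own strand and ends at the RefSeq start, or 30 bases past the start in the gene annotation where that comes first. Capitals mark matches to TTTGAA or to TTTAAA or to CCAAT on either strand, so that the reverse strand reads TTCAAA or ATTGG, and CCAATTGG holds 2 overlapping matches. Ncapd2 is shown for chr6:125191672-125191836 (- strand), Bub1b for chr2:118597961-118598210 (+ strand) and Kif15 for chr9:122950831-122951075 (+ strand). Top2a is shown for chr11:99024190-99024439 (- strand), Espl1 for chr15:102296043-102296292 (+ strand) and Ube2c for chr2:164769679-164769927 (+ strand).
Ncapd2: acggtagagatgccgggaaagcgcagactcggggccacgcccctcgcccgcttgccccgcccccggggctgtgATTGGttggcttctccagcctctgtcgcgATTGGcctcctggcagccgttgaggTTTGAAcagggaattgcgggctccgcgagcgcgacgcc
Bub1b: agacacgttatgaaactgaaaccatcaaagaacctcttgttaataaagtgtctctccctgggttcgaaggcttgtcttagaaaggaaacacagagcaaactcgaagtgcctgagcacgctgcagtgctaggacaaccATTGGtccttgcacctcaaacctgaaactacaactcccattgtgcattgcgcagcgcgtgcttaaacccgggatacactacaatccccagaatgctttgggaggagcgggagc
Kif15: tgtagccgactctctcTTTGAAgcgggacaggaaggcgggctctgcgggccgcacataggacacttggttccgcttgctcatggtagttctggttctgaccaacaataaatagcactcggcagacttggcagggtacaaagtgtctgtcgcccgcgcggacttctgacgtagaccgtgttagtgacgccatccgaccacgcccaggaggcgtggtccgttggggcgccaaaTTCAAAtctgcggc
Top2a: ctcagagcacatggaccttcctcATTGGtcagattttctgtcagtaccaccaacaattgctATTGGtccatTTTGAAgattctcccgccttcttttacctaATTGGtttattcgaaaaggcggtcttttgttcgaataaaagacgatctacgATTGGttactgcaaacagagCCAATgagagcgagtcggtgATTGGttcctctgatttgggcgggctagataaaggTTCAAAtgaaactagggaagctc
Espl1: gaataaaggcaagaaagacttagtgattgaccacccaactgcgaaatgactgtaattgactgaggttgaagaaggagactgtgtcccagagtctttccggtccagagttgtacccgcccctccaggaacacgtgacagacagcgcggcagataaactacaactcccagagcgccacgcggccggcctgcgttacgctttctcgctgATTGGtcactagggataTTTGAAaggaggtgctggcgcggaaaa
Ube2c: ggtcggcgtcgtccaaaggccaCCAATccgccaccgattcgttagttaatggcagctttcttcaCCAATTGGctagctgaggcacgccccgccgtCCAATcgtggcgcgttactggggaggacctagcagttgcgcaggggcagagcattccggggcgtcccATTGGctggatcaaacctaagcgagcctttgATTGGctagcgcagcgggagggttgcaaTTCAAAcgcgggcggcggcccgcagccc
Ncapd2, Top2a, Espl1 and Ube2c show both motifs in the printed stretch, while Kif15 shows only TTTGAA and its reverse, and Bub1b shows only the reverse of CCAAT. The TTTGAA of Bub1b lies 41 bases past the start, outside the printed stretch. In Espl1 the reverse of CCAAT begins 44 bases and TTTGAA 27 bases before the start. Top2a carries the most, with 6 CCAAT matches between 227 and 58 bases before the start and TTTGAA matches 179 and 23 bases before it. Ube2c holds 6 CCAAT matches and a TTTGAA match 29 bases before the start, although its level did not differ beyond the spread (log2 fold change -0.03). Over the 41 windows, 36 of 50 matches to the first motif lay within 50 bases of the start, 22 of them after it, and 41 of 63 CCAAT matches lay in the 100 bases before it.

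**Figure D4:**
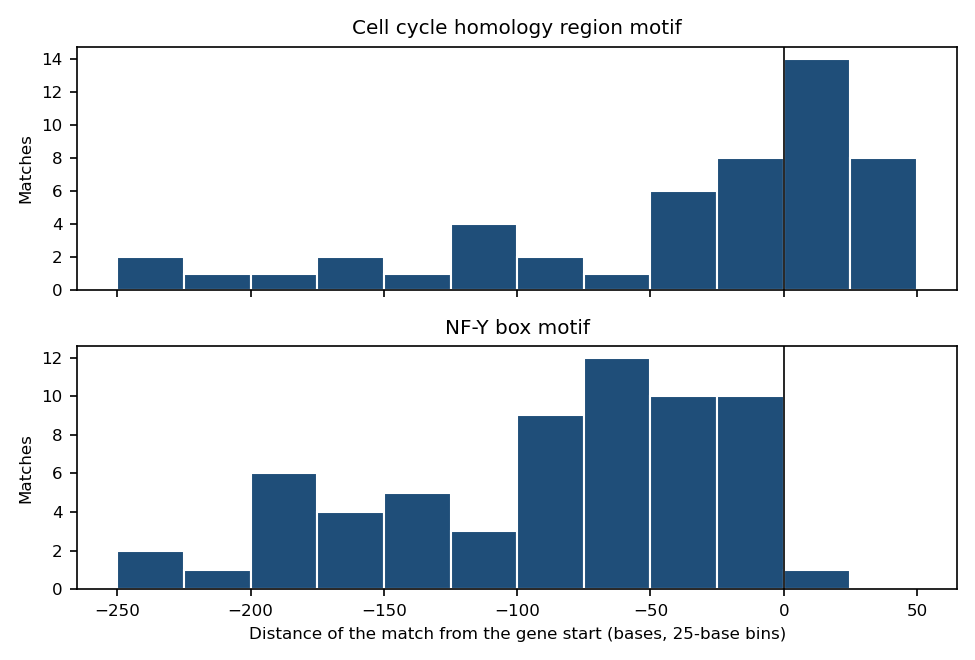
Number of matches per 25-base bin against the distance from the RefSeq gene start, over the 41 mitosis gene windows, for the cell cycle homology region (TTTGAA or TTTAAA, upper) and for the NF-Y box (CCAAT, lower). The first motif is most frequent around and just after the start, and CCAAT in the 100 bases before it.

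Among the entry kinases and cyclins, 3 of 8 genes fell (4 without the affected junctions, 1 under TMM, 2 without both libraries numbered 4), and the median log2 fold change was -0.24. Without those libraries Ccnb2 (adjusted p = 0.0542) and Plk1 (0.0603) lost their call and Ccnb1 gained one. Ccna2, the A cyclin that partners CDK2 and CDK1 from S phase into mitosis, was at 114, 140, 136 and 136 RPM in wild-type libraries 1 to 4 and at 79.7, 90.3, 71.1 and 58.9 RPM in knockout libraries 1 to 4. All knockout libraries were lower, and the fall of 0.81 (SE 0.14, adjusted p = 0.00707) shrank to 0.41 (adjusted p = 0.00557) without 3 junctions that hold 10 dropped values. Ccnb2, a B cyclin of the CDK1 complex, was at 172, 158, 149 and 157 RPM in wild type and at 140, 121, 107 and 95.6 RPM in knockout. Its fall was 0.47 (SE 0.12, adjusted p = 0.029), with no overlap and library 4 lowest in the knockout group, and the call held in 3 of the 8 fits that left out 1 library, those without wild-type library 3, knockout library 1 or knockout library 4 (adjusted p 0.0199 to 0.0806 over the 8).
Plk1, a kinase that acts on centrosomes, kinetochores and cytokinesis, was at 112, 110, 120 and 106 RPM in wild type and at 93.8, 99.5, 81.3 and 83.8 RPM in knockout. The groups did not overlap (log2 fold change -0.32, SE 0.09, adjusted p = 0.0381), but the call held only without knockout library 2 among those 8 fits (0.0412 to 0.102).

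Cdk1, the kinase that drives mitotic entry, was level between the groups over all junctions and lower in knockout once its dropped values were left out. Over all 10 junctions it was at 65.8, 72.1, 54.7 and 44.6 RPM in wild type and at 32.9, 77.7, 62.6 and 73.1 RPM in knockout, with wide overlap and a log2 fold change of 0.00 (adjusted p = 0.994). The junction between exon blocks 8.5 and 9.1 held 569, 502 and 563 reads in wild-type libraries 1 to 3 and 1 read in wild-type library 4, and 1, 486, 341 and 537 reads in knockout libraries 1 to 4. The next junction, between blocks 9.2 and 10.1, had no such gap, at 472, 492, 438 and 402 reads in wild type and 388, 304, 331 and 466 reads in knockout. Without the 3 affected junctions Cdk1 was at 24.4, 29.3, 24.7 and 24.0 RPM in wild type and at 19.9, 19.3, 18.8 and 21.3 RPM in knockout, all below wild type (log2 fold change -0.35, SE 0.10, adjusted p = 0.0337). Nearly all of that sum came from the junction between blocks 9.2 and 10.1, which averaged 23.6 of 25.6 RPM in wild type. The fall therefore rests mostly on that junction. Ccnb1, the main B cyclin, did not pass over all junctions (log2 fold change -0.04, adjusted p = 0.965) or without the affected ones (-0.28, adjusted p = 0.128). It passed over all junctions without both libraries numbered 4 (-0.68, adjusted p = 0.014) and in 1 of the 8 fits that left out 1 library (adjusted p = 0.0471). Those fits keep the 4 junctions that hold its 12 dropped values, 4 of them in wild-type library 4. These junctions carry most of its reads: the wild-type mean was 73.4 RPM with them and 18.4 RPM without. Cdc25c, a phosphatase that activates CDK1, had -0.35 (adjusted p = 0.14), and Aurka, a spindle pole kinase, -0.16 (adjusted p = 0.341). Cdc25b, a relative of Cdc25c, was at 24.3, 32.5, 30.1 and 20.9 RPM in wild type and at 41.2, 27.0, 26.6 and 21.8 RPM in knockout, which overlap.

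**Figure D5:**
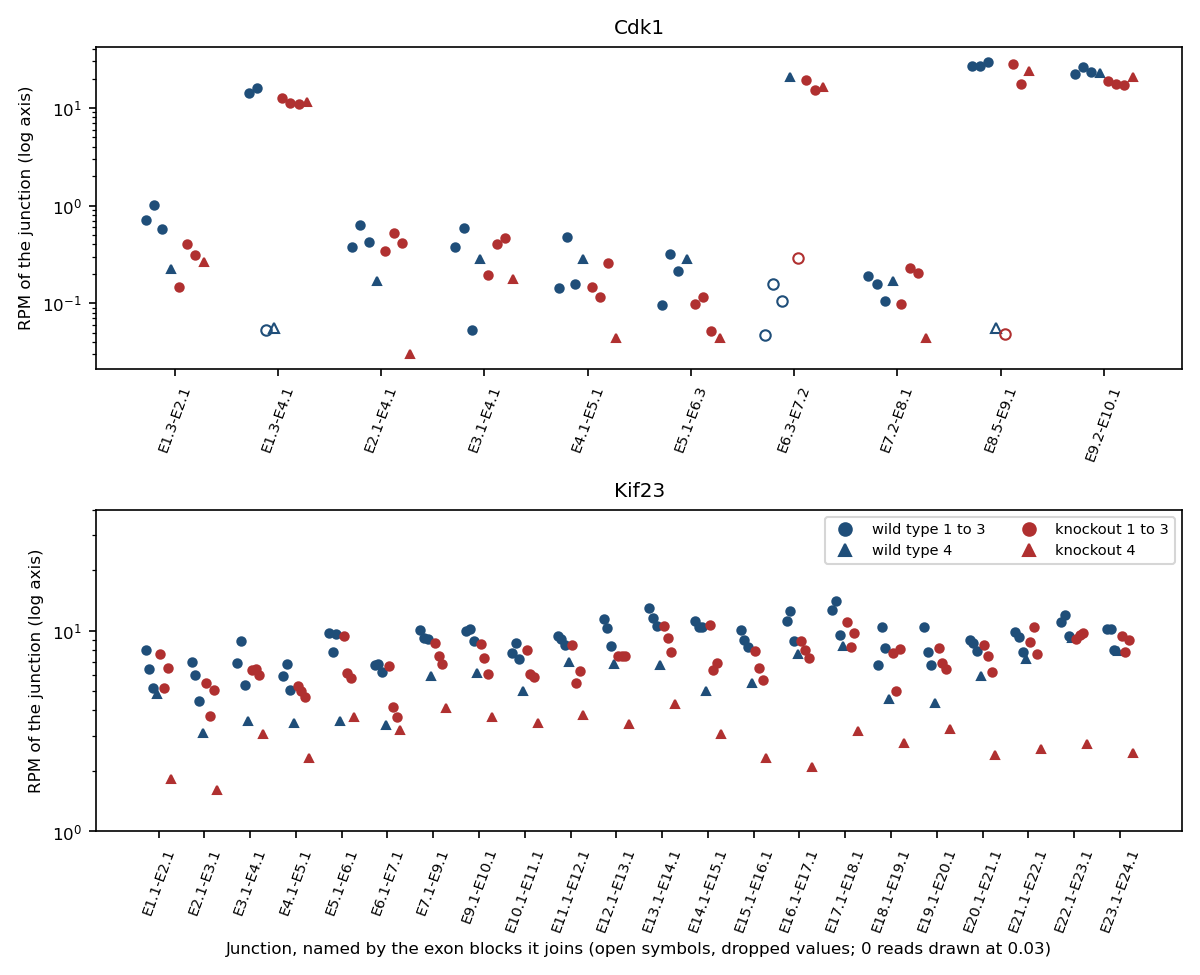
RPM of every junction of Cdk1 (upper) and Kif23 (lower) in the 8 libraries on log axes, with triangles for the libraries numbered 4 and open symbols for dropped values, and with 0 reads drawn at 0.03. In Cdk1 the low values fall in different libraries at different junctions, while in Kif23 both libraries numbered 4 are lowest of their group at all 22 junctions.

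In the spindle checkpoint, 3 of 5 genes fell (4 without the affected junctions, 1 under TMM, 1 without both libraries numbered 4, 2 with the replicate block), and their median log2 fold change was -0.29. Bub1b, which encodes the checkpoint protein BUBR1, was at 248, 237, 229 and 220 RPM in wild type and at 181, 146, 147 and 153 RPM in knockout. The highest knockout library was well under the lowest wild-type library, and the fall was 0.57 (SE 0.09, adjusted p = 0.00518), with or without any 1 library (0.00612 to 0.0213). Bub3, its kinetochore partner, was at 191, 192, 212 and 215 RPM in wild type and at 174, 171, 153 and 166 RPM in knockout, without overlap (log2 fold change -0.29, SE 0.08, adjusted p = 0.0337). Ttk, the kinase MPS1 that starts checkpoint signalling, was at 60.9, 64.5, 61.8 and 57.9 RPM in wild type and at 52.3, 52.1, 45.0 and 50.3 RPM in knockout, also without overlap (log2 fold change -0.29, SE 0.09, adjusted p = 0.0454). The call of Ttk was lost when any 1 library was left out (0.0527 to 0.118), and that of Bub3 held only without knockout library 4 (0.0399 to 0.0908). With the replicate number as a block, neither passed (0.057 for Ttk and 0.0543 for Bub3).
Mad2l1, the MAD2 protein that binds CDC20, passed without its dropped values and not over all junctions. Those sums were 43.5, 45.2, 40.4 and 40.8 RPM in wild type, and 27.8, 31.5, 26.9 and 34.6 RPM in the knockout libraries (log2 fold change -0.48, adjusted p = 0.01), against -0.28 (adjusted p = 0.367) over all junctions. Bub1, a checkpoint kinase, was lower in every knockout library (178, 160, 162 and 150 RPM in wild type, and 149, 144, 135 and 121 RPM in the knockout libraries) but did not pass without the replicate block (log2 fold change -0.24, adjusted p = 0.0917, and 0.0476 with it).

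Among kinetochore genes 1 of 7 fell (14.3%, near the 12.1% of all genes; none under TMM or without both libraries numbered 4, and 2 with the replicate block or without the affected junctions), and the median log2 fold change was -0.27. Nuf2, a subunit of the NDC80 complex that binds microtubules, was at 120, 102, 104 and 115 RPM in wild type and at 89.3, 98.3, 78.1 and 78.4 RPM in knockout. Knockout library 2 came close to wild-type library 2, and the fall of 0.36 (SE 0.10, adjusted p = 0.0412) held only without knockout library 2 among the 8 fits that left out 1 library (0.0375 to 0.11). Its partners in the complex had no call, at -0.27 for Ndc80, -0.31 for Spc24 and -0.01 for Spc25. Without its 14 dropped values Spc25 was at -0.33 (adjusted p = 0.109). Cenpf, a large outer kinetochore protein, was at 52.4, 58.1, 56.9 and 50.1 RPM in wild type and at 50.04, 43.7, 39.0 and 38.7 RPM in knockout. It has no dropped value, yet its adjusted p was 0.0602 in the fit to all junctions and 0.0393 in the fit without the affected junctions of other genes (log2 fold change -0.34 in both). Cenpe, a kinetochore motor, had -0.27 (adjusted p = 0.116), and 0.0423 with the replicate block. Cenpa, the histone that marks centromeres, had 0.05 over all junctions and -0.27 without its dropped values (adjusted p = 0.271).

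Of the spindle kinesins and microtubule proteins, 3 of 8 fell, all of them motors (4 without the affected junctions, 1 under TMM, 2 without both libraries numbered 4, none by the most-read junction), with a median log2 fold change of -0.27. Kif11, the kinesin Eg5 that pushes spindle poles apart, was at 267, 253, 235 and 225 RPM in wild type and at 205, 194, 170 and 162 RPM in knockout. Kif15, a kinesin that can stand in for it, was at 256, 238, 234 and 227 RPM in wild type and at 193, 180, 160 and 149 RPM in knockout. Neither gene overlapped between groups, and the falls were 0.43 for Kif11 (SE 0.10, adjusted p = 0.0202) and 0.49 for Kif15 (SE 0.10, adjusted p = 0.0113).
Kif15 held its call without any 1 library (0.0109 to 0.038), while Kif11 lost it without wild-type library 1, wild-type library 2 or knockout library 3 (up to 0.0612). Kif18a, a kinesin that limits chromosome movement at the spindle equator, was at 25.6, 19.7, 23.8 and 26.1 RPM in wild type and at 19.5, 12.3, 15.5 and 14.0 RPM in knockout. Its highest knockout value was just under its lowest wild-type value (log2 fold change -0.61, SE 0.16, adjusted p = 0.0317), and the call held without wild-type library 2, knockout library 1 or knockout library 4 only (0.0253 to 0.0802), and was lost without both libraries numbered 4 (0.0927). By the most-read junction alone the log2 fold changes were -0.15 for Kif11 (adjusted p = 0.31), -0.40 for Kif15 (0.0587) and -0.37 for Kif18a (0.148). Tpx2, which activates Aurora A on the spindle, passed without its dropped values (log2 fold change -0.25, adjusted p = 0.0396) and not over all junctions (-0.21, adjusted p = 0.175). Kif2c at -0.27, Kif4 at -0.27, Hmmr at -0.13 and Nusap1 at -0.15 had no call.

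Of the condensin and chromosome structure genes 5 of 8 fell (4 without the affected junctions, with the replicate block or without both libraries numbered 4, and 2 under TMM or by the most-read junction), with a median log2 fold change of -0.32. Ncapd2, a regulatory subunit of condensin I, was at 774, 724, 670 and 696 RPM in wild type and at 495, 453, 440 and 443 RPM in knockout. The knockout libraries lay within a narrow band at 63.9% of the wild-type mean, and the fall of 0.64 (SE 0.07) had the smallest adjusted p of the 49 genes, 0.00217. Top2a, the topoisomerase that untangles sister DNA, was at 1528, 1286, 1252 and 1142 RPM in wild type and at 1034, 881, 871 and 891 RPM in knockout, without overlap (log2 fold change -0.50, SE 0.10, adjusted p = 0.0134). Both kept their call without any 1 library, at most 0.0113 for Ncapd2 and 0.0423 for Top2a.
Ncaph, another condensin I subunit, was at 123, 113, 124 and 113 RPM in wild type and at 98.2, 88.3, 95.4 and 96.9 RPM in knockout (log2 fold change -0.32, SE 0.08, adjusted p = 0.022). Smc4, a core ATPase of condensin, was at 370, 336, 324 and 315 RPM in wild type and at 291, 279, 256 and 252 RPM in knockout (log2 fold change -0.32, SE 0.08, adjusted p = 0.0284). Smc4 had the most dropped values of the 49 genes, 44, and without the 9 junctions that hold them its log2 fold change was -0.27 and no longer passed (adjusted p = 0.0735). Its partner ATPase Smc2 moved the other way with its 16 dropped values removed, from -0.41 (adjusted p = 0.0423, and 0.0606 with the replicate block) to -0.46 (adjusted p = 0.00509), and those sums did not overlap, at 202, 182, 180 and 185 RPM in wild type, and 147, 146, 129 and 124 RPM in the knockout libraries. Among the fits that left out 1 library, Ncaph and Smc4 each kept their call in 4 and Smc2 in 1, with adjusted p up to 0.0619, 0.0795 and 0.1. Knockout libraries 2 and 3 and wild-type library 1, each left out in turn, ended the calls of Ncaph and Smc4, as did wild-type library 3 for Ncaph and wild-type library 2 for Smc4, and the call of Smc2 held only without knockout library 2.
The other condensin subunits, Ncapg at -0.24 (condensin I, adjusted p = 0.1) and Ncapg2 at -0.13 (condensin II, adjusted p = 0.511), had no call. Mki67, which coats mitotic chromosomes and serves as the Ki-67 marker of dividing cells, was at 247, 249, 221 and 188 RPM in wild type and at 228, 216, 197 and 158 RPM in knockout. These overlap (log2 fold change -0.18, SE 0.14, adjusted p = 0.388), with library 4 lowest in both groups.

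The 3 genes of the anaphase trigger differed among themselves. Espl1, the protease separase that cuts cohesin, was at 135, 138, 131 and 112 RPM in wild type and at 89.3, 86.9, 90.1 and 82.2 RPM in knockout, without overlap (log2 fold change -0.56, SE 0.09, adjusted p = 0.00525), and kept its call without any 1 library (at most 0.0216). Cdc20, the activator of the anaphase-promoting complex, was at 121, 131, 122 and 126 RPM in wild type and at 108, 98.3, 87.0 and 89.2 RPM in knockout without its 4 dropped values, and passed in that fit (log2 fold change -0.39, adjusted p = 0.0104) but not over all junctions (-0.46, adjusted p = 0.0542). Ube2c, the ubiquitin-conjugating enzyme of that complex, was at 182, 187, 182 and 192 RPM in wild type and at 210, 174, 167 and 178 RPM in knockout. Knockout library 1 was the highest of all 8, and the log2 fold change was -0.03 (SE 0.09, adjusted p = 0.821).

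In the chromosomal passenger complex and cytokinesis, 3 of 10 genes fell (none under TMM, 1 by the most-read junction, 4 with the replicate block or without both libraries numbered 4), and the median log2 fold change was -0.23. Kif20b, a kinesin of the midbody, was at 190, 186, 183 and 175 RPM in wild type and at 160, 149, 151 and 146 RPM in knockout (log2 fold change -0.28, SE 0.07, adjusted p = 0.0228). Ect2, the exchange factor that activates RhoA at the cleavage site, was at 157, 144, 156 and 125 RPM in wild type and at 116, 112, 93.8 and 110 RPM in knockout (log2 fold change -0.43, SE 0.10, adjusted p = 0.0239). Kif20a, a kinesin that brings Aurora B to the central spindle, was at 175, 169, 178 and 160 RPM in wild type and at 149, 144, 131 and 126 RPM in knockout (log2 fold change -0.31, SE 0.08, adjusted p = 0.0299).
The groups of all 3 genes were separate. Their calls held in 4, 3 and 3 of the 8 fits that left out 1 library, with adjusted p up to 0.0669, 0.065 and 0.0826; all 3 were lost without wild-type library 1, wild-type library 2, knockout library 2 or knockout library 3, and those of Ect2 and Kif20a also without wild-type library 3. The members of the passenger complex itself had no call: Incenp, its scaffold, had -0.31 (adjusted p = 0.0834, and 0.0463 without both libraries numbered 4, or 0.0225 in the blocked fit), Birc5, which encodes survivin, had -0.19, and Aurkb, its kinase, had -0.07, or -0.26 without its 21 dropped values (adjusted p = 0.0516). The central spindle proteins Prc1 and Racgap1 and the ring protein Anln had 0.05, -0.18 and -0.06. Without 21 dropped values Prc1 was at -0.22 (adjusted p = 0.248).

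Kif23, the motor of the central spindle, was at 208, 206, 174 and 125 RPM in wild-type libraries 1 to 4 and at 182, 150, 149 and 65.3 RPM in knockout libraries 1 to 4. Library 4 was the lowest of both groups at each of the 22 junctions, none of which has a dropped value. The log2 fold change was -0.45 with an SE of 0.32 (adjusted p = 0.354, and 0.0578 with the replicate block). Leaving out both libraries numbered 4 gave -0.29 (adjusted p = 0.121).

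Use of single junctions within the mitosis genes was tested with limma's diffSplice, which asks whether a junction departs from the rest of its gene. No gene was called among 38 with 437 junctions that average at least 100 scaled reads and have no dropped value, none had an unadjusted p under 0.05, and the lowest adjusted p was 0.999. Of all genes tested, 8 of 4631 were called (0.173%). At a lower minimum of 50 scaled reads, 45 mitosis genes gave no call (lowest adjusted p 0.0992, 3 with an unadjusted p under 0.05), where 1.52% of all genes were called.

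Other genes of the mitotic machinery, from a list drawn up with earlier results of these data known, also had more falls than rises. Of 121 tested, 38 fell (31.4%, against 12.1% of all genes) and none rose, and the median log2 fold change was -0.26. Under TMM 25 fell (20.7%, against 8.83% of all genes). By role, 12 of 33 spindle, centrosome and cytokinesis genes fell, 6 of 31 further kinetochore genes (19.4%, and 4 or 12.9% under TMM), 5 of 17 subunits of the anaphase-promoting complex, 5 of 14 cohesin genes, 5 of 16 genes of entry and exit control, and 5 of 10 condensin II and other chromosome proteins. Smc3, a core subunit of cohesin, was at 449 ± 4.97 RPM in the wild-type group and 293 ± 10.4 RPM in the knockout group (SD over 4 libraries, as below; log2 fold change -0.61, adjusted p = 0.00124). Lmnb1, the lamin B1 of the nuclear envelope, was at 289 ± 15.6 and 169 ± 20.4 RPM (-0.78, adjusted p = 0.00274). Cenpp, an inner kinetochore protein, was at 22.0 ± 1.22 and 12.9 ± 1.13 RPM (-0.73, adjusted p = 0.00499), and Haus1, a subunit of the augmin complex that branches spindle microtubules, at 49.1 ± 4.37 and 29.5 ± 3.56 RPM (-0.72, adjusted p = 0.00648). In these 4 genes every knockout library was below every wild-type library.

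Regulators that act on mitosis promoters gave 5 falls and no rise among 16 genes, where 12.1% of all genes fell and 8.49% rose. Their median log2 fold change was -0.37. Fewer of them fell in some fits that left out 1 library, as given in the last section. Rbbp4, a histone-binding subunit shared by MuvB and other complexes, was at 576 ± 30.1 RPM with Cop1 and 428 ± 20.5 RPM without it (SD, n = 4, -0.43, adjusted p = 0.00587). Lin9, another MuvB subunit, was at 26.6 ± 2.19 and 18.2 ± 1.02 RPM (-0.53, adjusted p = 0.0131). E2f4, the repressor E2F of DREAM, was at 189 ± 8.92 and 130 ± 25.8 RPM (-0.56, adjusted p = 0.0206), and Rbl2, the pocket protein p130, at 164 ± 11.1 and 119 ± 17.7 RPM (-0.48, adjusted p = 0.0225). The calls of E2f4 and Rbl2 were lost without some single libraries, among them wild-type library 2 and knockout libraries 1 and 2 (up to 0.0591 and 0.0635). The fifth was Rbl1, the pocket protein p107 (-0.43, adjusted p = 0.039, and up to 0.101 without 1 library). Foxm1 (-0.29, adjusted p = 0.237) and Mybl2 (-0.37, adjusted p = 0.216), activators of late cell cycle genes, had no call.

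The replicative helicase, which opens DNA at origins in S phase, gives the comparison with an earlier step of the cell cycle. Of its 12 genes 9 fell and none rose (9 under TMM), where 12.1% of all genes fell (8.83% under TMM). The median log2 fold change was -0.72, against -0.28 for the mitosis genes. The sums without affected junctions were 3169, 3287, 3209 and 2922 RPM in wild type, and 1874, 2111, 1772 and 1890 RPM in the knockout libraries, with knockout library 4 in the middle of its group and not the lowest as for mitosis. Mcm7 was at 318 ± 13.8 and 172 ± 9.64 RPM (SD, n = 4, -0.88, adjusted p = 0.000708), and Mcm2, Mcm5 and Mcm4 had -0.80, -0.78 and -0.81 (adjusted p = 0.00225 each), all of them subunits of the helicase ring. The difference between the lists was not tested.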

How the data were processed

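RNA of FT1CL cells was sequenced in 8 strand-specific libraries, 4 per group, from 2 µg of total RNA each, per the labels' protocols. The submitters' processing notes name Trimmomatic 0.39, kallisto and build mm10. The aligner is not given in the sources used here. Rows, per the file headers, are AltAnalyze exon junctions of Ensembl genes. The deposited values are a normalised junction signal, which the values show to be reads plus 1, divided by the library's junction reads and a length of 60, with 0 reads at a floor of 0.854. Reads recovered from the values above the floor were whole within 0.001 of a read for 100% of them.

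Junction reads were summed per gene and scaled to RPM. Genes averaging 1 RPM or more were tested with limma 3.58.1 (trend, robust) on log2(RPM + 1), which understates changes of low genes. A dropped value held at most 6 reads against at least 100 predicted from the rest of its gene (29300 values, 6.15% of those of 56315 junctions). TMM factors were computed with own code, and scripts were tested on simulated data. Coordinates are from Gencode M21 (mm10), and promoters from RefSeq (GRCm38.p6).

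The fit has no replicate block. The replicate numbers in the labels did pair the libraries: after subtracting group means, same-numbered libraries correlated at 0.32, 0.29, 0.36 and 0.55, and differently numbered ones at 0.15 at most. No library was a duplicate (chi-square per degree of freedom at least 30.8). The members and gene lists were chosen with earlier results of these data known. Per sub-function, up to 4 called genes with the smallest adjusted p get values in every library, and up to 4 genes of each further list are named; Cop1 is always named. Smc2, Cdk1, Kif23 and the other genes described beside these were chosen after their values were seen. Alternatives were another scaling, other pseudocounts (0.5, 5) and filters, sums without dropped junctions, the most-read junction, the block, and leaving out libraries; TMM scaling without dropped junctions was added after seeing the data. Reads of near-identical copies, such as the pseudogenes named after Ccnb1, Ccnb2 and Kif4, could be split between them.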

Additional observations from a re-analysis of the deposited data

Results flagged for a closer look

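In 4 of the 100 groups of 4 libraries checked (the 49 mitosis genes and Cop1, in wild type and in knockout), 1 library lay far from the other 3; chance alone flags about 1 in 20 groups. Each of the 4 held at least 1 dropped junction value in that library. Ccna2 was at 114 RPM in wild-type library 1 and at 136 to 140 RPM in the others, with 1 dropped value, and at 74.4 RPM against 77.6 to 85.5 RPM without the affected junctions. Ccnb1 was at 19.5 RPM in wild-type library 4 and at 89.6 to 92.9 RPM in the others, with 4 dropped values, and at 19.1 RPM against 17.3 to 19.9 RPM without them. Smc2 was at 203 RPM in wild-type library 2 and at 235 to 241 RPM in the others, with 4 dropped values, and at 182 RPM against 180 to 202 RPM without them. Top2a was at 1034 RPM in knockout library 1 and at 871 to 891 RPM in the others, with 1 dropped value, and at 971 RPM against 835 to 881 RPM without the affected junctions. Unlike the other flagged libraries, that one was the highest of its group, with and without these junctions. Top2a held 15 dropped values in 3 junctions over the 8 libraries, so other libraries were lowered as well. In knockout library 2 these junctions added almost nothing, at 881.5 RPM with and 881.3 RPM without them. Their part in the gap was not tested.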

How the results depend on the processing

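The calls of Plk1, Bub3, Ttk, Nuf2 and Smc2, with log2 fold changes of -0.41 to -0.29, held in at most 1 of the 8 fits without 1 library. No mitosis gene rose in any alternative run. Pseudocounts of 0.5 and 5 changed no call among the 49 genes, a mean of at least 10 RPM added 1 and no filter removed 2. The Cop1 check stayed lower throughout (log2 fold change -1.18 to -0.94), and no junction use call appeared in the 12 alternatives of that test. The fit with the replicate block called 19 mitosis genes as the fit without it did, 16 of them shared, with 3 gained (Bub1, Cenpe, Incenp) and 3 lost (Bub3, Ttk, Smc2). Of all genes, 15.7% were lower in the fit with the block. Kinetochore genes then had 2 calls. The block without the affected junctions called 34 of the 49 (5 entry, 5 checkpoint, 4 kinetochore, 7 kinesin, 6 condensin, 2 anaphase and 5 cytokinesis genes), where 2389 of all genes were lower (21.8%) and 1695 higher (15.5%), against 1330 and 934 in the fit as reported.

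Under TMM scaling 6 mitosis genes (12.2%, near the 8.83% of all genes) were lower (1 entry, 1 checkpoint, 0 kinetochore, 1 kinesin, 2 condensin and 0 cytokinesis genes), and 25 of the further mitosis genes. TMM without the affected junctions called 14 (28.6%, against 12.5% of all genes), with 0 kinetochore, 2 anaphase and 1 cytokinesis genes. The most-read junction alone called 11, with 0 kinesin, 2 condensin and 1 cytokinesis genes. Dropping the affected junctions gave 2 kinetochore and 2 anaphase calls, the 10 RPM filter 2 anaphase calls, no filter 0 kinetochore calls, and leaving out both libraries numbered 4 gave 0 kinetochore calls and 1 checkpoint call. Leaving out 1 library at a time, the mitosis genes lower ranged from 6 to 16 (entry 1 to 2, checkpoint 1 to 2, kinetochore 0 to 1, kinesins 1 to 3, condensin 2 to 4, anaphase 1 to 2, cytokinesis 0 to 3). The further mitosis genes ranged from 20 to 37, the regulators from 2 to 5, and all genes from 706 to 1742 lower and 509 to 1249 higher. The cause of these changes in number was not tested.

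Signs changed only in genes without a call in the fit as reported. Cdk1 went from 0.00 to -0.35 without the affected junctions, with or without the block, to -0.28 when TMM was added, to -0.33 by its most-read junction and to -0.23 without both libraries numbered 4. Cenpa went from 0.05 to -0.27, -0.27, -0.20 and -0.25, and Prc1 from 0.05 to -0.22, -0.22, -0.15 and -0.31, for the first 4 of these alternatives in that order. The most-read junction of Cdk1 also carries most of its sum without the affected junctions, so those alternatives are not separate evidence. Under TMM scaling, Ccnb1 was at 0.031, Spc25 at 0.0588, Ube2c at 0.0422, Aurkb at 0.0009 and Anln at 0.0105, and without the affected junctions as well Ube2c was at 0.0412 and Anln at 0.0094. By the most-read junction alone Ccnb1 was at 0.98, Ncapg at 0.0621 and Anln at 0.011. Leaving out 1 library at a time, log2 fold changes ran from -0.59 to 0.15 for Ccnb1, from -0.13 to 0.28 for Cdk1, from -0.0832 to 0.21 for Cdc25b, from -0.0602 to 0.11 for Cenpa, from -0.14 to 0.0933 for Spc25, from -0.10 to 0.0056 for Ube2c, from -0.17 to 0.0312 for Aurkb, from -0.11 to 0.15 for Prc1 and from -0.11 to 0.0027 for Anln. edgeR and DESeq2 on recovered reads were planned and not run.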
